A study of Mus musculus with 6 samples.

Results

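The genes described here are 45 type I interferon response genes of the mouse, taken by gene symbol from the 28627 genes of an RNA-seq table of retina. They were chosen as well-known interferon-stimulated genes together with the receptor chains that sense interferon, and 39 of them were among the 16681 genes with enough reads to test. The retinas were taken on postnatal day 15 from pups put through oxygen-induced retinopathy, a model in which young mice are kept in high oxygen and then returned to room air, so that vessels are first lost and then regrow in excess. Of the 6 libraries, 3 were from Emcn-/- pups and 3 from Emcn+/+ littermates. Emcn encodes endomucin, a glycoprotein on the surface of endothelial cells. All 6 libraries came from the oxygen model, so no retina from normal air was compared, and the labels give neither the cells in which the Emcn-/- allele acts nor whether each library is 1 animal. The p-values therefore measure the spread between these libraries. Because whole retina was sequenced, fewer cells of a type and less RNA per cell cannot be told apart.

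Type I interferons are secreted proteins that cells release when they sense foreign or misplaced nucleic acid. They bind a receptor made of the Ifnar1 and Ifnar2 chains, whose kinases activate STAT proteins. Stat2 joins Irf9 in a complex that enters the nucleus, binds a short promoter element called ISRE, and switches on antiviral genes such as the Ifit, Oas, Mx and Gbp families. In the retina, microglia, Müller glia and vascular cells are all known to be able to mount this response.

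Values are normalised reads per gene, that is, read counts divided by 1 factor per library. One library stood apart for these genes. In Emcn+/+ replicate 3, 42 of the 45 genes had their highest value of the 6 libraries, where 17.4% of 18461 genes with at least 10 reads in some library were highest in it. In 37 of 45 the value was more than 2 times the highest of the other 5 libraries, against 0.861% of those genes. Of the 45, 4 (Zbp1, Oas3, Oasl1 and Mx1) had 10 reads in that library alone, and so entered the 18461 through it. Among the 39 tested genes, 36 were highest in Emcn+/+ replicate 3 (17.7% of all tested genes) and 31 were more than 2 times the highest of the other 5 libraries (0.558% of all tested genes). The summed level of all 45 was 6334, 6288 and 6710 normalised reads in the 3 Emcn-/- libraries, against 6362, 6091 and 20670.4 in the 3 Emcn+/+ libraries. In this sum, to which the genes with high levels give most, the 5 other libraries lay close together whichever genotype they had. Single genes could differ more among them, such as Rtp4, at 19.5 to 42.5. The comparison of genotypes turned on whether Emcn+/+ replicate 3 was in it.

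Emcn itself matched the labels in every library, with 1.95, 1.04 and 4.62 normalised reads in Emcn-/- retinas and 93.3, 80.6 and 100.5 in Emcn+/+ retinas. It fell by 4.83 on the log2 scale (SE 0.40, limma adjusted p = 0.0143), and it was the single gene of 16681 (0.00599%) past an adjusted p of 0.05. Library totals were 14865868 to 17087621 reads. Emcn+/+ replicate 3 also differed from the rest in sex-linked transcripts, with 19265 normalised reads of Xist, against 0.924 to 3.89 across Emcn-/- libraries, 3.11 in Emcn+/+ replicate 1 and 4.63 in Emcn+/+ replicate 2. Ddx3y, a Y-linked gene, was at 1356, 1413 and 1143 in Emcn-/- retinas and at 1185, 1190 and 0 in Emcn+/+ retinas. This library and Emcn-/- replicate 3 carry sample titles 188 and 186, while the other 4 run between 144 and 148. The labels do not say what the numbers mean, and the part of sex-linked differences or of the title series in the results was not tested.

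**Figure D1:**
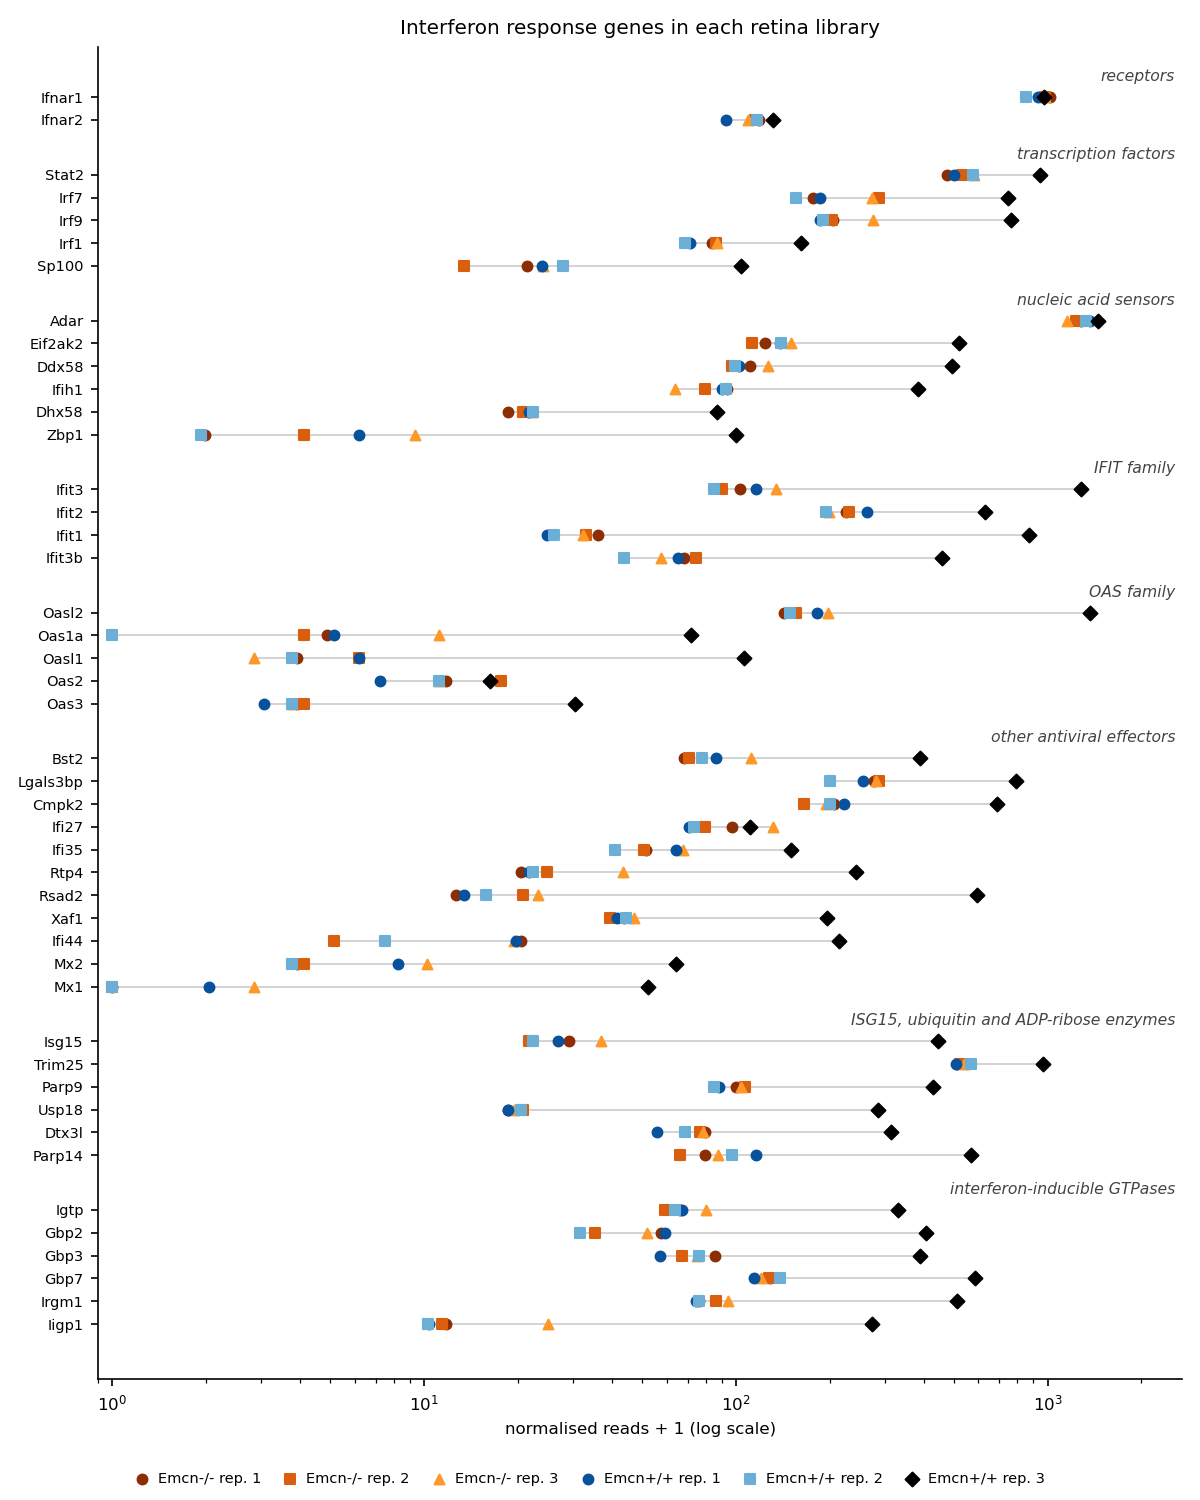
Normalised reads plus 1 (log scale) of each of the 45 genes in each library, grouped by role; orange and brown symbols are Emcn-/- libraries, blue and black symbols Emcn+/+ libraries, and black diamonds Emcn+/+ replicate 3. The black diamond is the rightmost point in 42 of 45 genes, with Ifnar1, Oas2 and Ifi27 as the exceptions.

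Promoters of 5 genes with a wide gap between Emcn+/+ replicate 3 and the other libraries are shown, because they hold the element through which type I interferon is known to act. Sequences are the 250 bases before the transcription start, from RefSeq (GRCm38.p6), 5′ to 3′ on the strand of the gene. Capitals mark every match to the ISRE core GAAANNGAAA on either strand, read as TTTCNNTTTC on the other. Rsad2 is at chr12:26456453-26456702 on the minus strand, Ifit1 at chr19:34640639-34640888 on the plus strand, and Isg15 at chr4:156200819-156201068 on the minus strand. Ifit3 and its near copy Ifit3b are at chr19:34583279-34583528 and chr19:34607707-34607956 on the plus strand. Ifnar1, which is at chr16:91484965-91485214 on the plus strand, is shown for contrast as a gene whose level in Emcn+/+ replicate 3 lay within the range of the others.

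Rsad2: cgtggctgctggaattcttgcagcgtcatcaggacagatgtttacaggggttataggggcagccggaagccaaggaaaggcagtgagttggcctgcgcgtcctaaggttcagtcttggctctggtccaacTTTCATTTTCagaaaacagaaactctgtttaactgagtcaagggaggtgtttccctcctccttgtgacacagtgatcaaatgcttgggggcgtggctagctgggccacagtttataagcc
Ifit1: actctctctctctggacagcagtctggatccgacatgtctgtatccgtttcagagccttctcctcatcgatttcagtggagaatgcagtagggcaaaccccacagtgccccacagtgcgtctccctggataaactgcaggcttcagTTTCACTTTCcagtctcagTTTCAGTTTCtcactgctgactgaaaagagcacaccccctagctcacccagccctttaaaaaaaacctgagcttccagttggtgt
Isg15: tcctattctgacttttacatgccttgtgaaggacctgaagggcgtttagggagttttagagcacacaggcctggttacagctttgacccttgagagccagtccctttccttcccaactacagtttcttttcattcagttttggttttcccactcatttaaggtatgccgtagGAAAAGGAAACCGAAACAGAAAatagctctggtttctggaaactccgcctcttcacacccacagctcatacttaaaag
Ifit3: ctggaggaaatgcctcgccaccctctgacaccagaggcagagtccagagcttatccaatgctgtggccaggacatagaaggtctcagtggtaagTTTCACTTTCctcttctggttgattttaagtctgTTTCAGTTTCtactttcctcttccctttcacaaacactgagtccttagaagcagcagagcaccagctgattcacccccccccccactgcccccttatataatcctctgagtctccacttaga
Ifit3b: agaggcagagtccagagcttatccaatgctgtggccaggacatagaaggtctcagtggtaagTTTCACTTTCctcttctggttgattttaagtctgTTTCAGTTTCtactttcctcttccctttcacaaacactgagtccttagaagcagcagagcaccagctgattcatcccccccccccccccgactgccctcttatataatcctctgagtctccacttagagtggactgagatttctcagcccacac
Ifnar1: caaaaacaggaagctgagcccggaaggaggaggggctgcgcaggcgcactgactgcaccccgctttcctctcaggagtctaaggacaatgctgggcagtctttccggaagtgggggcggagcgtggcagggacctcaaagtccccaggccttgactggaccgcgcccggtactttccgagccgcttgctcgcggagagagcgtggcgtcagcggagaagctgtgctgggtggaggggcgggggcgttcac

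With the start of the transcript as position 1 and no position 0, the Rsad2 window held 1 match, beginning at -120. Ifit1 held 2, at -104 and -85, and Isg15 held 3 that overlap in 1 run, at -78, -72 and -66. Ifit3 matched at -156 and -122 and Ifit3b at -188 and -154, so that both pairs are 34 bases apart. When their 300-base windows, which also take in 50 bases after the start, were laid over each other at these elements without gaps, 201 of 268 bases were equal (75%). Bases past a run of C that differs in length were thus compared out of register, so this is not the share equal after alignment. Ifnar1 had no match. Over windows that also take in 50 bases after the start, 17 of the 34 genes with a RefSeq promoter (50%) held at least 1 ISRE match, against 3.47% of 11845 tested genes and 41.2% of 97 further interferon-stimulated genes. GAS, the element TTCNNNGAA that is known from the response to interferon gamma, was in 11 of 34 (32.4%), against 8.05% of the tested genes. Of the 97 further interferon-stimulated genes, only 11.3% held GAS. The gap of Emcn+/+ replicate 3 over the other libraries, ranked over 18461 genes, placed the 17 genes with an ISRE match at a median rank of 38 (2 to 254) and the 17 without one at a median of 97 (6 to 5223). Those without include Oasl1 and Ifi44 at ranks 6 and 13, and a missing match says only that these letters are not in the window. A match is a description of the letters and does not show binding.

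The 45 genes lie on 16 chromosomes, and 21 of them sit in 8 runs of neighbours less than 200 kb apart. The 4 Ifit genes span 99.3 kb of chromosome 19, from 34550694 to 34650009 (GRCm38, GENCODE M21). Ifnar1 (ENSMUSG00000022967) is on chromosome 16 from 91485238 to 91507441, Adar (ENSMUSG00000027951) on chromosome 3 from 89715022 to 89753446, and Parp14 (ENSMUSG00000034422) on chromosome 16 from 35832874 to 35871544. Rsad2 and Cmpk2 are neighbours on chromosome 12, Parp14, Dtx3l and Parp9 on chromosome 16, and Gbp7, Gbp3 and Gbp2 on chromosome 3. Reads of close copies may have been split between genes, since 41.1% of the 75-base stretches of Ifit3 transcripts also occur in Ifit3b, and 47.6% of those of Oas1a in Oas1g. It is unknown if strand was recorded, so reads of Adar, 16.8% of whose exonic bases lie opposite Chrnb2, and of Parp9 and Dtx3l, which share 458 exonic bases on opposite strands, cannot be told apart from those of their partners.

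The 2 receptor chains were level across the libraries. Ifnar1, the chain that all type I interferons need, was at 1018, 983 and 983 normalised reads in Emcn-/- retinas and 933, 854 and 973 in Emcn+/+ retinas. The genotypes did not overlap, but they lay close, with a log2 fold change of 0.11 (SE 0.07, limma adjusted p = 0.682). Ifnar2, the other chain, was at 118, 114 and 108 in Emcn-/- retinas and 92.3, 116 and 131 in Emcn+/+ retinas. Emcn+/+ replicate 3 lay within the range of the other libraries for Ifnar1, at rank 5223 of 18461, and at 1.11 times the highest of them for Ifnar2. Of 14 further genes of the receptor and kinase chain, 7 were highest in Emcn+/+ replicate 3 (17.4% of 18461 genes). By limma 0 of the 13 tested passed an adjusted p of 0.05 (0.00599% of all tested genes), and 1 had an unadjusted p under 0.05 (8.14%). Jak1, a kinase bound to the receptor, was at 2677, 2562 and 2672 in Emcn-/- retinas, against 2611, 2565 and 2582 in Emcn+/+ retinas.

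The 5 transcription factors were all highest in Emcn+/+ replicate 3. Stat2 was at 474, 531 and 579 normalised reads in Emcn-/- retinas and 499.9, 575 and 947 in Emcn+/+ retinas. Irf7, which amplifies interferon production, was at 175, 286 and 273 in Emcn-/- retinas and 185, 155 and 746 in Emcn+/+ retinas. Without Emcn+/+ replicate 3, its Emcn-/- values overlapped the remaining Emcn+/+ values through replicate 1. Sp100, a nuclear body protein, was low at 20.4, 12.4 and 23.1 in Emcn-/- retinas and 22.8, 26.9 and 103 in Emcn+/+ retinas, which is 3.82 times the highest other library in Emcn+/+ replicate 3. Its genotypes overlapped in the other 5 libraries. Irf9 and Irf1 were 2.79 and 1.87 times the highest other library there.

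Among the 6 sensors and effectors of nucleic acid, Adar stood out by its high and narrow level and the others by their high level in 1 library. Adar, which edits adenosine in double-stranded RNA, was at 1279, 1229 and 1154 normalised reads in Emcn-/- retinas and 1372, 1324 and 1455 in Emcn+/+ retinas. Every Emcn-/- value was below every Emcn+/+ value, and the mean was 1221 ± 63.0 in Emcn-/- and 1383 ± 66.3 in Emcn+/+ retinas (SD, n = 3 libraries each). Its log2 fold change was -0.18 (SE 0.06, limma adjusted p = 0.528). Eif2ak2, the kinase that halts translation on double-stranded RNA, was at 123, 112 and 149 in Emcn-/- retinas and 138, 138 and 519.8 in Emcn+/+ retinas. Ifih1, a cytoplasmic RNA sensor, was at 92.5, 78.8 and 62.8 in Emcn-/- retinas and 89.2, 91.8 and 384 in Emcn+/+ retinas. In both genes the libraries other than Emcn+/+ replicate 3 overlapped between genotypes. The other cytoplasmic RNA sensors, Ddx58 (RIG-I) and Dhx58, were 3.93 and 4.05 times the highest other library in Emcn+/+ replicate 3. Zbp1, a sensor of left-handed nucleic acid, had 99.4 normalised reads there, against 0.974 to 8.32 across Emcn-/- libraries, 5.19 in Emcn+/+ replicate 1 and 0.927 in Emcn+/+ replicate 2, and was too low in most libraries to test.

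**Figure D2:**
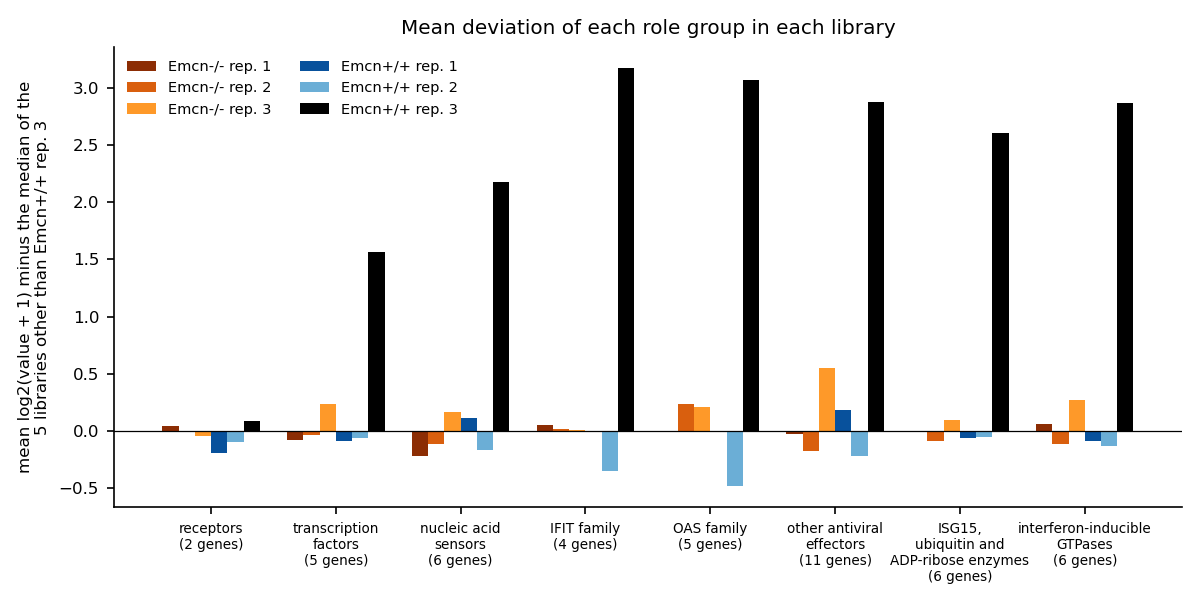
Mean over each role group of log2(normalised reads + 1), as the difference from each gene's median over the 5 libraries other than Emcn+/+ replicate 3, for Emcn-/- (brown to orange bars) and Emcn+/+ (blue and black bars) libraries. In Emcn+/+ replicate 3 the receptors are at 0.09, the transcription factors at 1.56, and every other role group between 2.18 and 3.17.

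The IFIT family, which binds foreign RNA and blocks its translation, had the highest role-group mean in Emcn+/+ replicate 3, at 3.17 on the log2 scale over the median of the other 5 libraries. Ifit1 was at 35.1, 32.2 and 31.4 normalised reads in Emcn-/- retinas and 23.9, 25.0 and 868 in Emcn+/+ retinas, or 24.8 times the highest other library in Emcn+/+ replicate 3. Without that library, every Emcn-/- value lay above both Emcn+/+ values. Ifit3 was at 102, 89.2 and 134 in Emcn-/- retinas and 115, 84.3 and 1281 in Emcn+/+ retinas. Ifit2 was at 224, 229 and 199 in Emcn-/- retinas and 262, 194 and 631 in Emcn+/+ retinas, with the smallest excess of the family at 2.41 times. Ifit3b, which shares much of its sequence with Ifit3, was at 6.23 times the highest other library. Per kb of exon, Ifit3 was the most abundant of the 45 in Emcn+/+ replicate 3, at 734 normalised reads per kb, where its median over the other 5 libraries was 58.6. Ifnar1 was the most abundant in those 5, with a median of 165.5 per kb, followed by Adar at 158.

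The OAS family makes the short adenylate chains that activate an RNA-cutting enzyme, and its members lay apart from one another. Oasl2, an RNA-binding relative, was at 142, 155 and 197 normalised reads in Emcn-/- retinas and 180.5, 148 and 1363 in Emcn+/+ retinas, the highest value of the 45 genes after Adar in that library. Oas2 was low and showed no such step, at 10.7, 16.6 and 10.2 in Emcn-/- retinas and 6.22, 10.2 and 15.3 in Emcn+/+ retinas. Oas1a, Oasl1 and Oas3 were at 0 to 10.2 in the other 5 libraries and at 71.0, 105 and 29.5 in Emcn+/+ replicate 3. None of the 3 passed the expression filter (minimum count 10). Oas3 was at no more than 3 reads, worth 2.77 to 3.11 normalised reads, in each of the other 5 libraries, so that no fold is given for it.

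The 11 further antiviral effectors held the gene with the widest gap of all 45. Rsad2 (viperin), an enzyme that makes a chain-terminating nucleotide, was at 11.7, 19.7 and 22.2 normalised reads in Emcn-/- retinas and 12.4, 14.8 and 592 in Emcn+/+ retinas, or 26.7 times the highest other library. It ranked 2 of 18461 genes in Emcn+/+ replicate 3, behind Xist. Its log2 fold change between genotypes was the lowest of the 39 tested, at -1.46, with an SE of 1.23 nearly as large (limma adjusted p = 0.770). It was -3.51 by edgeR and -3.53 by DESeq2, and 0.32 by limma without Emcn+/+ replicate 3. Cmpk2, its neighbour and a mitochondrial nucleotide kinase, was at 205, 164 and 193 in Emcn-/- retinas and 222, 199 and 688 in Emcn+/+ retinas. Both neighbours were thus highest in the same library, Cmpk2 by the smaller factor. Lgals3bp, a secreted galectin-binding protein, was at 277, 286 and 281 in Emcn-/- retinas and 255, 200.2 and 792 in Emcn+/+ retinas, and the Emcn-/- values lay between the middle and the highest Emcn+/+ value. Mx1, a GTPase that blocks viral replication, was at 0, 0 and 1.85 in Emcn-/- retinas and 1.04, 0 and 51.3 in Emcn+/+ retinas, and its close relative Mx2 was at 63.3 in Emcn+/+ replicate 3, against 2.92, 3.11 and 9.24 in Emcn-/- retinas, 7.26 in Emcn+/+ replicate 1 and 2.78 in Emcn+/+ replicate 2. Of the rest, Bst2 (tetherin), Xaf1, Ifi44, Ifi35 and Rtp4 were 2.25 to 10.9 times the highest other library in Emcn+/+ replicate 3. Ifi27 was not highest in that library, with 96.4, 78.8 and 130.3 in Emcn-/- retinas and 69.5, 72.3 and 110.3 in Emcn+/+ retinas.

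The next 6 genes act in the tagging of proteins with the ubiquitin-like ISG15, with ubiquitin or with ADP-ribose. Isg15, the tag itself, was at 28.2, 20.7 and 36.0 normalised reads in Emcn-/- retinas and 25.9, 21.3 and 444 in Emcn+/+ retinas. Usp18, which removes the tag and restrains the receptor, was nearly level in the other 5 libraries, with 17.5, 19.7 and 18.5 in Emcn-/- retinas and 17.6, 19.5 and 285 in Emcn+/+ retinas. For Isg15 and Usp18 the genotypes overlapped in those 5 libraries. Parp14, an ADP-ribosyltransferase, was lower in all Emcn-/- libraries, at 78.9, 65.4 and 86.9, against 115, 96.4 and 568 in Emcn+/+ retinas. Its log2 fold change was -1.26 (SE 0.56, limma adjusted p = 0.616) and, without Emcn+/+ replicate 3, -0.46 (SE 0.20, adjusted p = 0.272). Trim25, the ubiquitin ligase that activates RIG-I, was at 512, 522 and 537 in Emcn-/- retinas and 509, 568 and 966 in Emcn+/+ retinas. Parp9 and its partner Dtx3l were 4.06 and 3.97 times the highest other library in Emcn+/+ replicate 3.

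The 6 interferon-inducible GTPases, which attack the membranes around intracellular pathogens, were all more than 4 times the highest other library in Emcn+/+ replicate 3. Gbp7 was at 128, 127 and 119 normalised reads in Emcn-/- retinas and 113, 137 and 584 in Emcn+/+ retinas. Irgm1 was at 74.97, 85.1 and 93.3 in Emcn-/- retinas and 73.6, 75.1 and 512 in Emcn+/+ retinas. Both overlapped between genotypes outside Emcn+/+ replicate 3. Iigp1 had the widest step of the group, with 10.7, 10.4 and 24.0 in Emcn-/- retinas and 9.33, 9.27 and 273 in Emcn+/+ retinas. Without Emcn+/+ replicate 3 it was higher in all 3 Emcn-/- libraries, but the counts were low and near each other. They were 11, 10 and 26 reads in Emcn-/- retinas, against 9 and 10 in Emcn+/+ replicates 1 and 2. The log2 fold change of Iigp1 was then 0.54 (SE 0.46, limma adjusted p = 0.589). Gbp2, Gbp3 and Igtp were 4.15 to 6.99 times the highest other library in Emcn+/+ replicate 3.

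None of the 39 tested genes passed an adjusted p of 0.05 between Emcn-/- and Emcn+/+ retinas by limma (0 of 39, background 0.00599%), edgeR (background 0.00599%) or DESeq2 (background 1.18%). At an unadjusted p under 0.05, limma gave 1 of 39 (Adar; 8.14% of all tested genes), edgeR 11 (8.34% of all tested genes) and DESeq2 5 (5.75% of the genes it gave a p), where DESeq2 gave 33 of them a p and 4 an adjusted one. The fold changes nevertheless leaned one way, since 35 of 39 were negative (48.0% of all tested genes), with a median of -0.73 on the log2(value + 1) scale (-1.46 to 0.28), where the median of all 16681 genes was 0.01. In 3 of 39 the genotypes did not overlap (background 14.4%), higher in Emcn-/- for Ifnar1 (background 7.48%) and lower for Adar and Parp14 (background 6.94%). The large fold changes had wide errors. Ifit1, for one, averaged 32.9 ± 1.92 normalised reads in Emcn-/- retinas and 306 ± 487 in Emcn+/+ retinas (SD, n = 3 libraries each).

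Without Emcn+/+ replicate 3, the median of the same 39 genes was 0.13 (-0.46 to 0.55), with 26 positive and 13 negative (48.1% of all tested genes were negative). Again 0 of 39 passed an adjusted p of 0.05 by limma, where 0.905% of all tested genes did, and 4 had an unadjusted p under 0.05 (17.0% of all tested genes), with Lgals3bp, Irf7 and Ifnar1 positive and Parp14 negative. The lowest adjusted p was 0.239, for Lgals3bp, with a log2 fold change of 0.31 (SE 0.12). The genotypes then did not overlap in 11 of 39, below the background of 35.9%. In 9 every Emcn-/- value was above both Emcn+/+ values (background 19.0%), and in 2 every one was below (background 16.9%). The 9 were Ifnar1, Irf9, Irf1, Ifit1, Ifi27, Lgals3bp, Parp9, Dtx3l and Iigp1, and the 2 were Adar and Parp14.

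The title series gave no independent view of this turn in sign. Titles 144 to 148 leave out Emcn+/+ replicate 3, and titles 186 and 188 hold it. Among the 4 libraries with titles 144 to 148, 2 of each genotype, the median of the 39 genes was 0.03 with 16 negative (48.1% of all tested genes). By limma 0 of 39 passed an adjusted p of 0.05 (0.252% of all tested genes). At an unadjusted p under 0.05 there was 1, Parp14, for which no share over all tested genes was taken. The genotypes did not overlap in 17 (background 46.0%). Titles 186 and 188 gave 1 library of each genotype, with no test, and Emcn-/- replicate 3 minus Emcn+/+ replicate 3 had a median difference of -2.04 on the log2 scale and was negative in 37 of 39, where the median difference of all tested genes was 0.00.

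**Figure D3:**
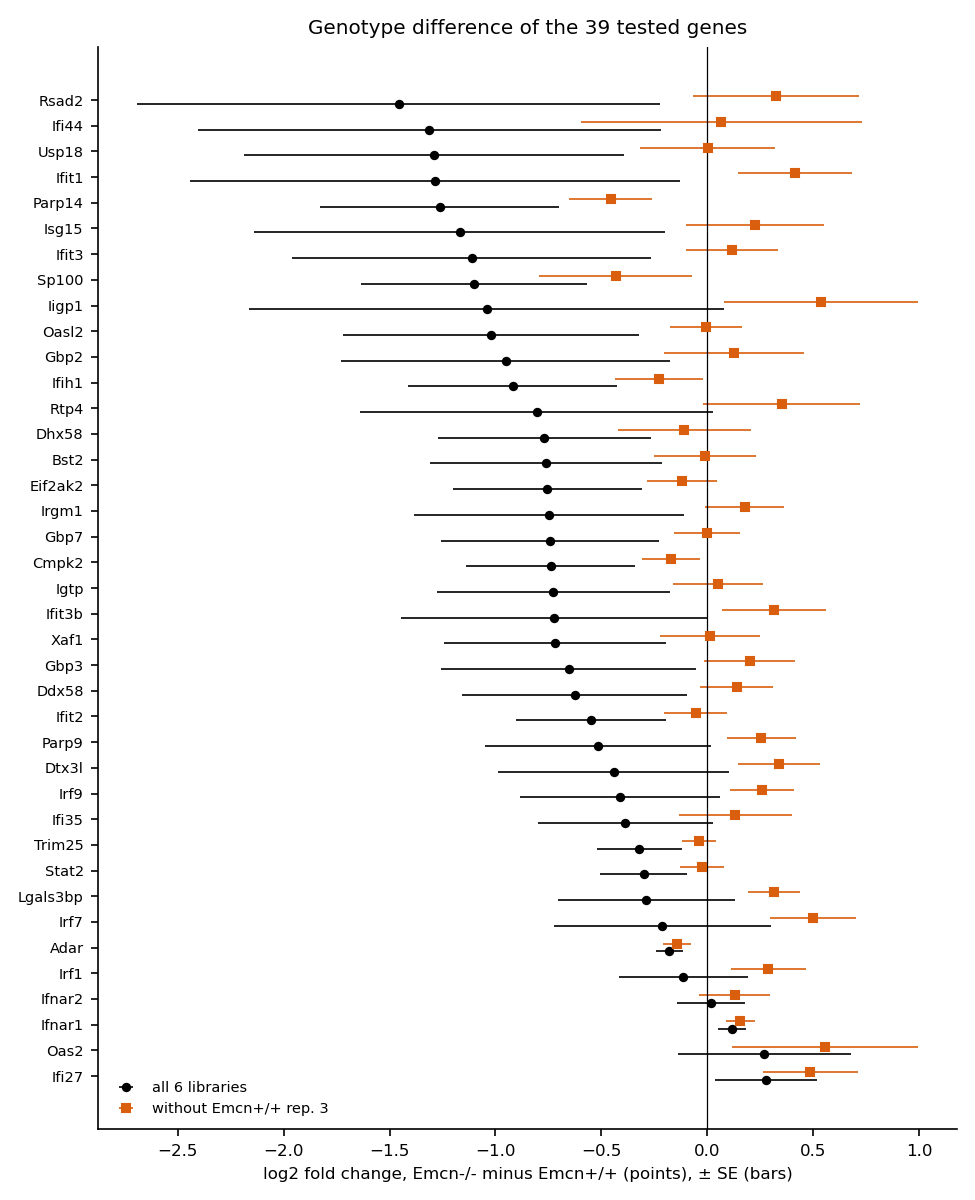
Log2 fold change of the 39 tested genes, Emcn-/- minus Emcn+/+ (points), with its SE (bars), from all 6 libraries (black) and without Emcn+/+ replicate 3 (orange). The black points have a median of -0.73 and the orange points a median of 0.13.

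Library by library, the mean of the 45 genes over their median in the 5 libraries other than Emcn+/+ replicate 3 was -0.03, -0.06 and 0.25 on the log2 scale in Emcn-/- replicates 1 to 3, against 0.02, -0.19 and 2.52 in Emcn+/+ replicates 1 to 3. Among those 5 libraries, Emcn-/- replicate 3 was highest in 21 of 45 genes, Emcn-/- replicates 1 and 2 in 7 and 8, and Emcn+/+ replicates 1 and 2 in 5 and 4. Over all 16681 tested genes, Emcn-/- replicate 3 was also most often the highest of the 5, in 4141. There Emcn-/- replicates 1 and 2 were highest in 2480 and 3278, and Emcn+/+ replicates 1 and 2 in 3471 and 3311. The excess of Emcn-/- replicate 3 was small beside that of Emcn+/+ replicate 3. It is seen in Irf9, at 274 in that library, 204 and 202 in Emcn-/- replicates 1 and 2, and 186 and 189 in Emcn+/+ replicates 1 and 2, and in Rtp4, at 42.5, with 19.5 and 23.9 in Emcn-/- replicates 1 and 2 and 20.7 and 21.3 in those Emcn+/+ replicates.

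Ranked by the gap over the highest of the other 5 libraries, the 45 genes took 11 of the first 20 places in Emcn+/+ replicate 3, 21 of the first 50 and 34 of the first 100, with a median rank of 55 of 18461. Ranked among the 16681 tested genes alone, the 39 tested members took 14 of the first 20 places, 26 of the first 50 and 31 of the first 100, with a median rank of 30.0. Of the first 100 genes in Emcn+/+ replicate 3, 40 more were on a list of 117 further interferon-stimulated genes and 26 were on neither. The first 10 with a standard name outside the 45 were Xist, Ms4a4c, Tgtp2, Ifi204, Cxcl10, Ifi211, Tsix, Phf11d, Ifi206 and Ifi47, and apart from Xist and Tsix all of these are on that list. Cxcl10, a chemokine that draws T cells, was at 3.89, 1.04 and 19.4 in Emcn-/- retinas and 3.11, 0 and 190.0 in Emcn+/+ retinas.

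**Figure D4:**
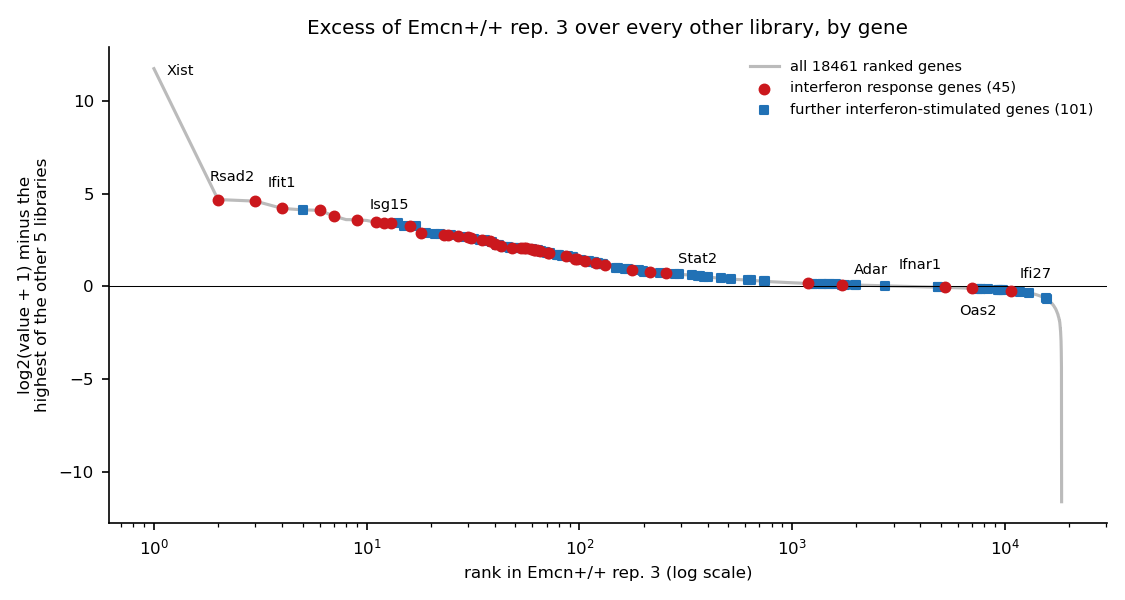
Difference in log2(value + 1) between Emcn+/+ replicate 3 and the highest of the other 5 libraries, in order of size over 18461 genes (log-scale rank), with the 45 interferon response genes in red and 101 further interferon-stimulated genes in blue. Of the red points 34 lie within the first 100 ranks; Ifnar1, Oas2 and Ifi27 lie below 0.

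The further interferon-stimulated genes were mostly highest in the same library. Of the 117, 114 were in the table, and 98 of those were highest in Emcn+/+ replicate 3. Among the 101 with at least 10 reads in some library 87 were, against 17.4% of 18461 genes. Some of the 101 reached 10 reads in Emcn+/+ replicate 3 alone, such as Ms4a4c, at 0 in the other 5 libraries. Such genes entered the 18461 through that library, so that being highest in it was fixed in advance for them. For the 75 tested, 0 passed an adjusted p of 0.05 by limma (0.00599% of all tested genes), and 3 had an unadjusted p under 0.05 (8.14%). Of the 75, 61 were negative (48.0% of all tested genes). The median log2 fold change was -0.24, which became 0.08 without Emcn+/+ replicate 3. Of 17 genes found from the chain that senses nucleic acid and induces interferon, 8 were highest in Emcn+/+ replicate 3. Of these, 1, Tlr7, was at more than 2 times the highest other library (0.861% of 18461 genes). Tlr7 had 8.76, 16.6 and 23.1 normalised reads in Emcn-/- retinas and 21.8, 13.9 and 47.0 in Emcn+/+ retinas. Irf3 and Mavs of that chain were not highest in it. Of 21 interferon genes only Ifnz was analysed here, with 1 read in Emcn-/- replicate 2, 1 in Emcn+/+ replicate 3 and 0 elsewhere, so the level of interferon transcripts themselves is not described.

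Marker genes of the cell types that a retina sample could hold were set beside the response. For the counts below, 17.4% of 18461 genes were highest in Emcn+/+ replicate 3. The summed level of 16 microglial genes was 2244, 2318 and 2682 normalised reads in Emcn-/- retinas and 2288, 2102 and 3272 in Emcn+/+ retinas, and 12 of 16 were highest in Emcn+/+ replicate 3. Among them the defining genes P2ry12 and Tmem119 were at 97.2 and 50.2 in that library, against 113 to 118 and 33.3 to 48.7 across Emcn-/- libraries, and 73.2 to 126 and 34.2 to 35.2 across Emcn+/+ replicates 1 and 2. Genes of reactive glia gave the widest step of all these lists in summed level, with 13371, 12758 and 19150.5 in Emcn-/- retinas and 11429, 12131 and 25367 in Emcn+/+ retinas, highest in Emcn+/+ replicate 3 in 15 of 16 and next highest in sum in Emcn-/- replicate 3. Gfap, the filament protein of activated astrocytes and Müller glia, was at 1347, 1258 and 2803 in Emcn-/- retinas and 999, 1223 and 3372 in Emcn+/+ retinas.

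The 10 genes of monocytes and border macrophages summed to 345, 352 and 372 in Emcn-/- retinas and 386, 328 and 476 in Emcn+/+ retinas, highest in Emcn+/+ replicate 3 in 6 of 10. Their mean log2 difference from the median of the other 5 libraries was 1.54 there, above that of reactive glia at 1.43. Of the 7 with at least 10 reads in some library, 3 were more than 2 times the highest other library (0.861% of 18461 genes). Only 3 of the 10 had enough reads to test. Ms4a4c, which is also interferon-stimulated, was at 16.4 in that library and 0 in all others. It thus entered the 7 through that library, and its place among the 3 was fixed in advance. Ccr2 was at 4.37 in Emcn+/+ replicate 3, against 0 to 2.77 across Emcn-/- libraries, 1.04 in Emcn+/+ replicate 1 and 8.34 in Emcn+/+ replicate 2. The neutrophil genes S100a9, Retnlg and Camp were at 0 in Emcn+/+ replicate 3, and the 7 found summed to 26.3, 33.2 and 32.3 in Emcn-/- retinas and 31.1, 40.8 and 44.8 in Emcn+/+ retinas. Emcn+/+ replicate 3 thus had the highest sum, and 2 of the 7 were highest in it. T and NK cell genes (5 of 14 found) summed to 45.3 to 68.5 in Emcn-/- and 39.9 to 54.6 in Emcn+/+ libraries, and the B cell genes (6 of 6) to 50.6 to 91.5 in Emcn-/- and 62.1 to 81.9 in Emcn+/+ libraries. Klrb1c, of the T and NK cell list, was at 0 in Emcn+/+ replicate 3. Plasmacytoid dendritic cells, which are known as rich sources of interferon, were read from 7 genes, which summed to 2385, 2178 and 2104 in Emcn-/- retinas and 2741, 2406 and 2667 in Emcn+/+ retinas. Of the 7, 3 were highest in Emcn+/+ replicate 3, and 1 of those, Bst2, is also among the 45. Siglech, which is also on the microglial list, was at 23.9 to 26.3 across Emcn-/- libraries, against 23.9, 11.1 and 9.83 in Emcn+/+ replicates 1 to 3. Together with Bst2 it gave the smaller part of each sum, so the sums mostly reflect the other genes of the list. Ly6d was at 0 in Emcn+/+ replicate 3. The part that cell makeup has in the response was not tested.

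**Figure D5:**
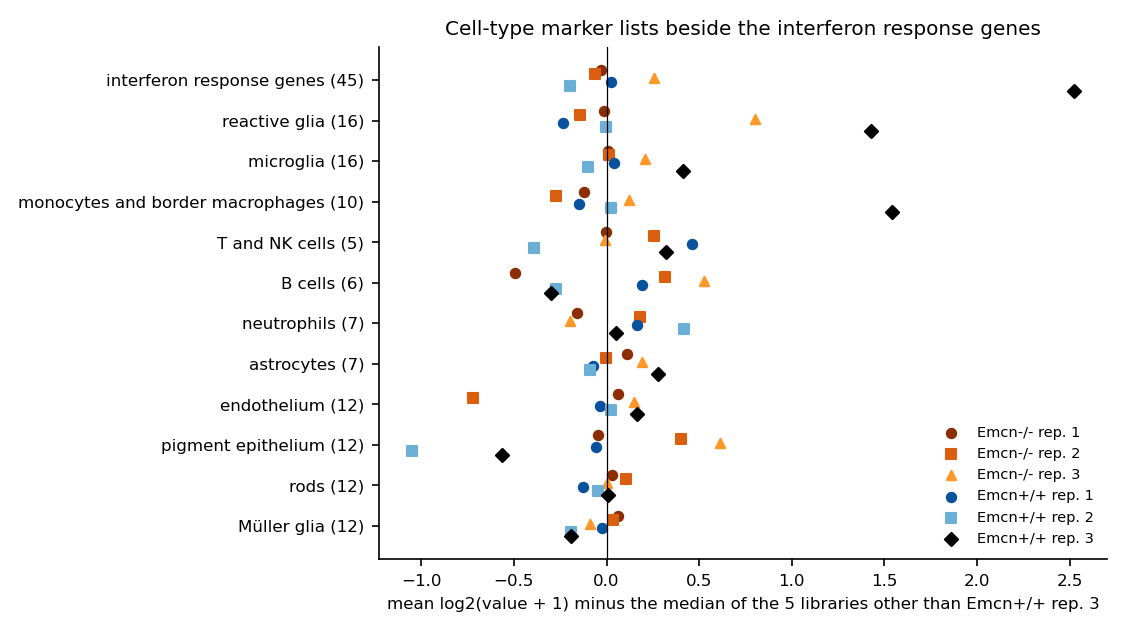
Mean over each marker list of log2(normalised reads + 1), as the difference from each gene's median over the 5 libraries other than Emcn+/+ replicate 3, with 1 point per library (Emcn-/- brown to orange, Emcn+/+ blue and black) and the number of genes found in brackets. Emcn+/+ replicate 3 is at 2.52 for the interferon response genes, and its next highest lists are monocytes and border macrophages, which hold Ms4a4c, and reactive glia.

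The 12 genes of rods, the most numerous photoreceptors, summed to 967216 to 1024660 in Emcn-/- and 878219 to 937701 in Emcn+/+ libraries, with 0 of 12 highest in Emcn+/+ replicate 3. The 12 endothelial genes summed to 7981, 5541 and 8413 in Emcn-/- retinas and 8098, 8194 and 8746 in Emcn+/+ retinas, lowest in Emcn-/- replicate 2. Genes of resting Müller glia summed to 97567, 97369.7 and 85553 in Emcn-/- retinas and 90356, 79264 and 73166 in Emcn+/+ retinas, lowest in Emcn+/+ replicate 3. The 12 genes of the pigment epithelium, a layer that borders the retina, summed to 16662, 20632 and 19044 in Emcn-/- retinas and 15447, 10629 and 11895 in Emcn+/+ retinas, and 7 astrocyte genes to 5758 to 7577 in Emcn-/- and 5341 to 7849.7 in Emcn+/+ libraries, highest in sum in Emcn+/+ replicate 3 and then in Emcn-/- replicate 3.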

How the data were processed

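RNA-seq was done on 3 Emcn-/- and 3 Emcn+/+ retinas. Per the labels' protocols, poly-A RNA was reverse transcribed with random primers, with or without strand marking. Per the submitters' processing notes the build was GRCm38, while the aligner and the gene models were not given in the sources used here. Values in the table that the authors deposited are a signal from reads, neither whole nor scaled by length. In each library 100% of them were whole multiples of 1 step (0.924 to 1.09, tolerance 0.001 of a read), from which reads were recovered. Limits from such reads cover counting error only.

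The 45 genes, role groups and gene lists were chosen with earlier results of these data known. A filter of edgeR on the recovered reads (filterByExpr, minimum count 10) left 16681 genes. The main test used log2(value + 1) and limma 3.58.1 in R 4.3.3, with a mean-variance trend and genotype alone in the model. Its p-values were adjusted over all genes by Benjamini-Hochberg and called under 0.05. Fold changes on this scale understate the change of low genes. Recovered reads were also tested by edgeR 4.0.16 (quasi-likelihood) and DESeq2 1.42.0. Limma was repeated with TMM scaling, without the filter, with a pseudocount of 0.5 or 5, with the title series as a term, within titles 144 to 148, and without each library in turn. Emcn+/+ replicate 3, as 1 library, is compared with the others by value and rank only. Values per library are given for the 2 tested genes with the highest mean and the tested gene with the widest gap in each role group, and outside the 45 for Emcn, Xist and Ddx3y, with the first 10 standard names by the gap named. 1 further gene of this rule is not reported here. Other genes were named after their values were seen. GENCODE M21 held 27390 of 28627 gene IDs. RefSeq (GRCm38.p6) windows, 250 bases before to 50 after the start, covered 34 of the 45, without Dhx58, Ifi27, Iigp1, Mx1, Mx2, Oas2, Parp14, Parp9, Rtp4, Usp18 and Zbp1.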

Additional observations from a re-analysis of the deposited data

How the results depend on the processing

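Of the 39 tested genes, 0 passed an adjusted p of 0.05 under each of the 14 alternatives run. Among these, DESeq2 gave an adjusted p to only 4 of the 39, so it could not call the rest. The direction of the list rested on Emcn+/+ replicate 3. The median log2 fold change was -0.73 with all 6 libraries, 0.13 without Emcn+/+ replicate 3 and 0.0344 within titles 144 to 148, and leaving out 1 library at a time gave -1.10 to 0.13. It was -1.12 by edgeR and -1.14 by DESeq2. The further interferon-stimulated genes had a median of -0.24 with all libraries, 0.0778 without that library and 0.0553 within titles 144 to 148, with a leave-one-out range of -0.46 to 0.0778. Negative fold changes numbered 35, against 16 within titles 144 to 148 and 13 to 37 with 1 library left out. Genotypes that did not overlap numbered 3, against 17 within those titles and 3 to 11 with 1 library left out. The cause of these shifts was not tested, except that with fewer libraries fewer values must be apart, and the share of all tested genes that did not overlap was 46.0% within those titles, against 14.4% with all libraries. Single genes turned sign in 22 of 39 without Emcn+/+ replicate 3 and in 19 of 39 within those titles, against 0 to 2 of 39 under each other alternative. Under every other alternative the medians of the tested genes and of the further interferon-stimulated genes stayed negative. The count of genotypes that did not overlap also rose without some other single libraries, for one to 7 without Emcn+/+ replicate 1. No paired analysis was possible because the replicate numbers follow only the order of the samples and pair no libraries. At this depth, levels under 2.77 to 3.28 normalised reads (3 reads) cannot be told from 0, which limits Mx1 and Oas3 outside Emcn+/+ replicate 3.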
